A study of Mus musculus with 96 samples.

Results

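The genes described here are the core pluripotency factors Pou5f1, Sox2 and Nanog of mouse embryonic stem cells (ESCs). They were taken by gene symbol from every deposited count table, so that 3 of the 37620 genes of those tables are followed here, and all 3 passed the filter on low counts in each comparison. The 26 RNA-seq libraries formed 7 comparisons of 2 libraries against 2, in lines where the Polycomb protein RYBP, the Trithorax component WDR5 or the transcription factor STAT3 had been changed. Peaks of H3K27ac, H3K4me3, WDR5, RING1B and STAT3 around the 3 genes came from 14 deposited lists of ChIP-seq peaks.

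All cells were grown in serum and LIF. Rybp+/+ ESCs were Rybp-floxed cells of the R7.15 line, and Rybp-/- ESCs were the same cells after 5 µM 4-hydroxytamoxifen (4-OHT) for 4 days. The control received no 4-OHT, so the drug and the loss of Rybp cannot be told apart. R1 ESCs carried an empty vector (shEV), an shRNA against Rybp (shRybp) or an shRNA against Wdr5 (shWdr5). For ChIP-seq, R1 ESCs with shEV were set beside R1 ESCs with Stat3 knockdown (shStat3), both for RING1B, and Tet.Rybp.Stat3 cells, which are R1 ESCs with the DOX-induced Rybp_Stat3 integration, were taken without DOX (DOX-) and with it (DOX+) for RING1B and STAT3. The shRybp and shWdr5 groups share the same shEV libraries, whose columns hold about 41698000 and 38961300 reads on genes in the table of shRybp and 21241900 and 19731600 in the table of shWdr5, and how the second set arose is not given in the sources used here. WT ESC and TF-AA mutation were also R1 cells, and the labels do not say what TF-AA stands for. WT.RYBP and RYBP phase disruption were R7.15 cells of the genotype RYBPfl/fl Rosa26::CreERT2 that all received 4-OHT. WT.RYBP cells carried WT RYBP overexpression, and RYBP phase disruption cells carried a shortened RYBP protein, the RYBP.21aa deletion. Tet.RYBP cells were J1 ESCs of the genotype Tet on.RYBP with vehicle or doxycycline (DOX). The rTRS cells carried the DOX-induced Rybp_Stat3 integration and were untreated (NTC) or given DOX. No group received DOX without such a transgene, so the drug and the induced genes cannot be told apart. The labels do not say whether any line was a single clone, nor whether the 2 libraries of a group came from separate cultures, so p-values here measure only the spread between these libraries.

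Pou5f1 encodes OCT4, a POU-domain factor that pairs with the HMG-box factor SOX2 on composite DNA sites, and NANOG is a homeodomain factor that joins them at many of the same enhancers. Together they keep ESCs self-renewing and hold down lineage genes, and each of them also acts on the genes of the others. In ESCs the dose of OCT4 matters in both directions, since loss lets cells turn towards trophectoderm. Nanog is known to vary between ESCs in serum, while LIF sustains the naive state through STAT3. RYBP is a subunit of variant Polycomb repressive complex 1, whose RING1B subunit ubiquitinates H2A, and WDR5 is a core subunit of the complexes that methylate H3K4. H3K4me3 marks active promoters and H3K27ac marks active promoters and enhancers.

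The promoters of the 3 genes are shown because the peaks described further on lie across them. In mm9, Pou5f1 (ENSMUSG00000024406) lies at chr17:35642982-35647721, Sox2 (ENSMUSG00000074637) at chr3:34548927-34551383 and Nanog (ENSMUSG00000012396) at chr6:122657507-122664651, each on the plus strand. Sox2 lies within an intron of the long noncoding gene Sox2ot (ENSMUSG00000090828, chr3:34003360-34581541), which runs on the same strand. The windows are those of RefSeq (GRCm38.p6), from 250 bases before to 50 bases after the RefSeq start, and all 3 genes matched. The identical sequence lies in mm9 at chr17:35642727-35643026 for Pou5f1, at chr3:34548667-34548966 for Sox2 and at chr6:122657257-122657556 for Nanog. Each is written 5′ to 3′ on the plus strand, and capitals mark matches on either strand to the letters searched for.
Pou5f1: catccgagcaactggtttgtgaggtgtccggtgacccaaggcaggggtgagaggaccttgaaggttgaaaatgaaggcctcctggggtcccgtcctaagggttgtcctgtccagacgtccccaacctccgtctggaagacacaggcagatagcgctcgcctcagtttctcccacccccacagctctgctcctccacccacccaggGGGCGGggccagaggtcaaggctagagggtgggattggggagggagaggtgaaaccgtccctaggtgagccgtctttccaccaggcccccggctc
Sox2: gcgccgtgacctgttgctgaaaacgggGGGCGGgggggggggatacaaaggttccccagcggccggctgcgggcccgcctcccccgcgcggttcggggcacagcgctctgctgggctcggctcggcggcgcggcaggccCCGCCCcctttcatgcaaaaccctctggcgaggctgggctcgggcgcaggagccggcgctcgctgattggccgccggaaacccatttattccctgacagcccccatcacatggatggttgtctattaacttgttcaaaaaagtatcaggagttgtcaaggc
Nanog: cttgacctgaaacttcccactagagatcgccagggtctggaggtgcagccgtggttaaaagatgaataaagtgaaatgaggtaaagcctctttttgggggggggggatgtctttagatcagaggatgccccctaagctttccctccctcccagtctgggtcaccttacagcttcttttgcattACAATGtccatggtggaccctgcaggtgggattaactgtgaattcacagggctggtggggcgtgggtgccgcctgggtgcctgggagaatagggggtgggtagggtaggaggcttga
The letters searched for on both strands were ATTTGCAT (octamer), ACAATG (SOX), TTCNNNGAA (STAT), GGGCGG (SP/KLF) and TAATGG (NANOG-like homeodomain). Pou5f1 held 1 match to GGGCGG, Sox2 held 2, and Nanog held 1 match to ACAATG. Only exact letters were counted, so variant sites are missed. The ttttgcat just before ACAATG in the Nanog window, for example, does not match ATTTGCAT. Among all 32851 RefSeq windows of this length, 35.7% held GGGCGG, 12.6% ACAATG, 8.30% TTCNNNGAA, 7.73% TAATGG and 1.74% ATTTGCAT. The G+C content was 62.7% for Pou5f1, 66.3% for Sox2 and 54.3% for Nanog.

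The libraries held 14512900 to 81049600 reads on genes, and each of the 28 columns of counts was scaled within its own table to CPM with TMM factors, that is, to counts relative to a common library total. In these units the 3 factors lay between 296 and 1346 CPM in every library. Per kb of the gene length that the tables give, they lay between the 97.4 and the 99.5 percentile of the genes tested. The defining ESC markers (the 3 factors with Zfp42, Esrrb, Dppa5a, Tdgf1 and Utf1) summed to between 3735 and 8656 CPM over the libraries, with none of the 8 at 0 in any comparison. Fibroblast or feeder genes summed to between 5.77 and 431 CPM, with the highest sums in the WT.RYBP and RYBP phase disruption libraries. In bulk RNA, fewer cells that express a gene and less RNA of it per cell cannot be told apart. Genome copies also bear on these counts, since how reads with several matches were counted is not given in the sources used here. Parts of 400 bases or more with at least 80% identity were found at 4 other places for Pou5f1, at 7 for Nanog and at none for Sox2. The closest copy of Nanog, at chrX:87127651-87128972, had 97.4% identity over 1325 aligned bases and no annotated gene.

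**Figure D1:**
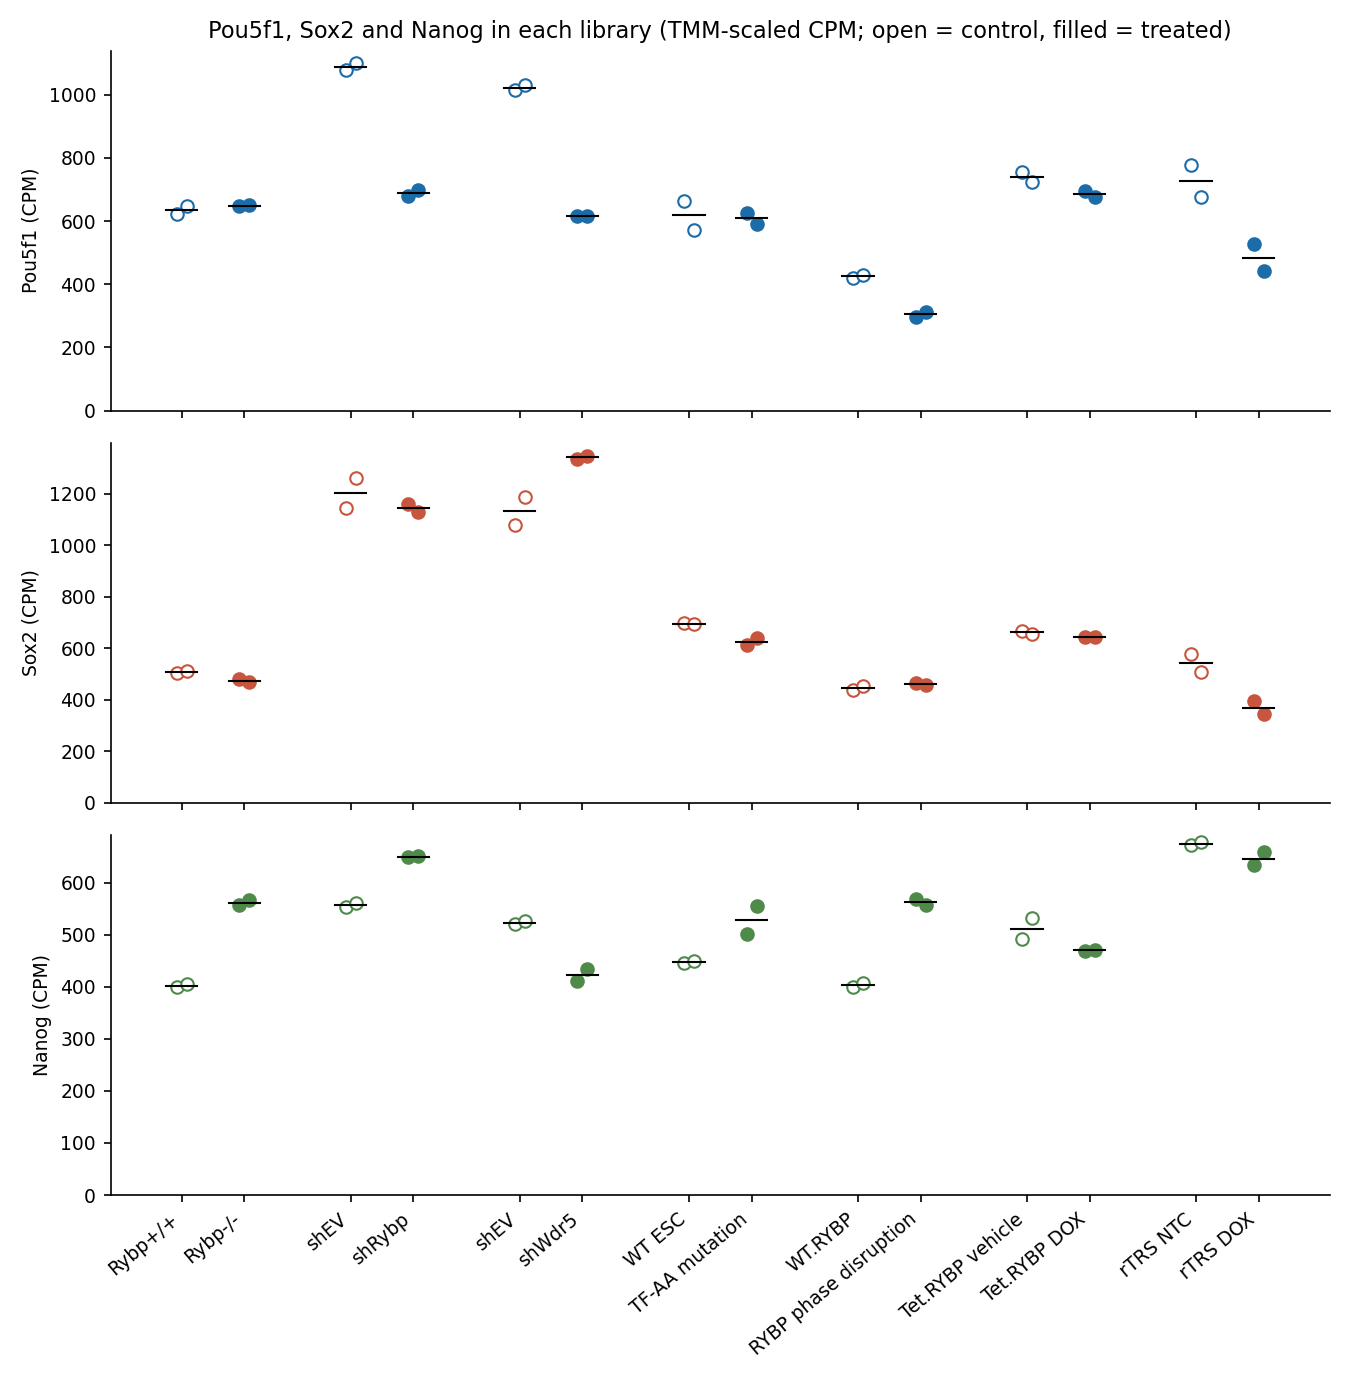
Level of Pou5f1, Sox2 and Nanog in each library, in TMM-scaled CPM on a linear axis from 0; open circles are control and filled circles treated libraries, and lines are group means of 2 libraries. CPM values can be compared within a pair of groups only, since each pair was scaled in its own table; every point lies between 296 and 1346 CPM, and within pairs the filled circles of Nanog lie above the open ones for Rybp-/- (557 and 567 against 400.04 and 405 CPM).

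The order of the 3 factors per kb was not fixed, as the plot of levels by library shows for each group. In Rybp+/+ ESCs Pou5f1 stood highest at 281 ± 8.2 CPM per kb (SD, n = 2), Sox2 second at 207 ± 2.66 and Nanog lowest at 179 ± 1.45. In Rybp-/- ESCs the order was Pou5f1 (288 ± 1.01), Nanog (251 ± 3.15) and Sox2 (193 ± 3.68), with no overlap between neighbours. In shEV cells, in the table of shRybp, Sox2 and Pou5f1 overlapped at 489 ± 32.9 and 482 ± 6.87 CPM per kb, well above Nanog at 249 ± 2.23. WT ESC likewise had overlapping Sox2 and Pou5f1 above Nanog. The order turned round entirely in a single comparison. WT.RYBP cells had Pou5f1 at 188 ± 3.59 CPM per kb, above Sox2 (181 ± 4.42) and Nanog (180 ± 2.82), which overlapped. RYBP phase disruption cells had Nanog at 251 ± 3.95, Sox2 at 187 ± 2.28 and Pou5f1 at 135 ± 5.07 CPM per kb, with no overlap. In rTRS cells Pou5f1 and Nanog overlapped above Sox2 without DOX, and with DOX Nanog (288 ± 7.83) stood above Pou5f1 (215 ± 26.3) and Sox2 (150 ± 14.5).

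The manipulated genes were read first as a check of the labels. Rybp stood at 110.4 and 110.2 CPM in Rybp+/+ and at 24.8 and 25.0 CPM in Rybp-/- ESCs, 22.6% of the control. With shRybp it went from 85.7 and 86.4 CPM to 35.8 and 36.6 CPM, 42.0% of shEV. Wdr5 fell with shWdr5 from 349.8 and 343 CPM to 60.0 and 58.2 CPM, 17.1% of shEV. DOX raised Rybp in Tet.RYBP cells from 135 and 145 CPM to 522 and 535 CPM. In rTRS cells the Rybp row did not rise with DOX, at 113 and 110.5 CPM without and 101.8 and 99.8 CPM with it (log2 fold change -0.15, SE 0.065, edgeR adjusted p = 0.076), and Stat3 rose from 159 and 172 CPM to 191 and 188 CPM (0.20, SE 0.064, adjusted p = 0.026). Whether the integrated sequence is counted in the Rybp row is not given in the sources used here.

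Loss of Rybp left Pou5f1 near its control level and raised Nanog. Of the genes tested in Rybp-/- against Rybp+/+ ESCs, 45.5% passed an adjusted p of 0.05 by edgeR's quasi-likelihood test (22.8% higher, 22.7% lower), and of the 3 factors Nanog was higher and Sox2 lower. Nanog had 400.04 and 405 CPM in Rybp+/+ and 557 and 567 CPM in Rybp-/- ESCs. Both Rybp-/- libraries thus lay above both controls, by a log2 fold change of 0.48 (SE 0.029, adjusted p = 3.95e-15), or to 139.6% of the control. Sox2 had 503 and 512 CPM in Rybp+/+ and 481 and 468 CPM in Rybp-/- ESCs. The groups did not overlap, but the step was small, to 93.5% of the control (-0.10, SE 0.030, adjusted p = 0.0072). Without the second Rybp-/- library it was -0.08 with an adjusted p of 0.183. Pou5f1 had 622 and 648 CPM in Rybp+/+ and 648 and 651 CPM in Rybp-/- ESCs. These groups overlapped, and the log2 difference of 0.03 had a 95% interval of -0.03 to 0.09 (adjusted p = 0.393). Sox2ot, which overlaps Sox2, was scarce, at 1.72 and 1.40 CPM in Rybp+/+ and 1.05 and 0.844 CPM in Rybp-/- ESCs (-0.72, SE 0.27, adjusted p = 0.031). Beside these changes, 6 of 7 fibroblast or feeder genes were higher in Rybp-/- ESCs, and their summed level went from between 56.5 and 57.2 CPM to between 114 and 120.0 CPM, with none of them at 0. The trophectoderm genes, 6 of 7 of which were higher, went from between 107 and 109 to between 127 and 130.4 CPM, and the primitive endoderm genes, 3 of 7 higher, from between 8.94 and 10.1 to between 16.9 and 18.1 CPM. The part of these cells' genes in the levels of the 3 factors was not tested.

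Knockdown of Rybp in R1 cells lowered Pou5f1 and raised Nanog. In shRybp against shEV 52.7% of the genes tested passed (26.8% higher, 26.0% lower), and of the 3 factors Nanog was higher and Pou5f1 lower. Pou5f1 had 1077 and 1099 CPM with shEV and 679 and 699 CPM with shRybp. The shRybp libraries lay far below both controls, at 63.4% of their level (-0.66, SE 0.039, adjusted p = 9.50e-11). Nanog had 554 and 561 CPM with shEV and 649 and 651 CPM with shRybp. It was higher in both shRybp libraries, at 117% of shEV (0.22, SE 0.040, adjusted p = 1.23e-04). Sox2 had 1144 and 1259 CPM with shEV and 1158 and 1128 CPM with shRybp. Its groups overlapped, with a log2 difference of -0.07 and a 95% interval of -0.16 to 0.02 (adjusted p = 0.179). Without the first shEV library Sox2 was called lower at -0.15 (adjusted p = 1.83e-04). Scaling by library size alone moved the median of all genes from 0.02 to 0.18 and the share of calls that were higher from 50.8% to 71.2%. Under it Pou5f1 was at -0.50 and Nanog at 0.38, both called, and Sox2 at 0.09. Wdr5 was also lower with shRybp, from 372 and 364 CPM to 265 and 259.7 CPM (-0.49, SE 0.044, adjusted p = 2.69e-08). Trophectoderm genes, 5 of 7 higher and 1 lower, went from between 92.1 and 101 CPM to between 161 and 163 CPM. Primitive endoderm genes, likewise 5 of 7 higher and 1 lower, went from between 17.3 and 21.1 to between 31.3 and 33.4 CPM, and 3 of 3 fibroblast or feeder genes tested were higher, with Dcn and Lum at 0 in every library. Their part in the levels of the 3 factors was not tested.

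The response of Pou5f1 to the loss of RYBP differed between the R7.15 knockout and the R1 knockdown, which differ in cell line, in method and in how much Rybp was left. In a fit over the 8 libraries, the Rybp-/- effect minus the shRybp effect was 0.71 for Pou5f1 (SE 0.047, adjusted p = 3.66e-11) and 0.28 for Nanog (SE 0.047, adjusted p = 2.97e-05). For Sox2 it was 0.00 (SE 0.054, adjusted p = 0.990). Of all 18203 genes tested, 40.5% differed in this way. Library size alone moved the median of this difference over all genes from 0.02 to -0.14 and the share of higher calls from 54.9% to 34.3%, and the values were then 0.56 for Pou5f1 and 0.13 for Nanog, both still called.

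Knockdown of Wdr5 moved each of the 3 factors, and Sox2 moved against the other two. In shWdr5 against shEV 63.0% of the genes tested passed (31.5% higher, 31.5% lower), and Sox2 was higher while Pou5f1 and Nanog were lower. Pou5f1 had 1015 and 1029.7 CPM with shEV and 615 and 615 CPM with shWdr5. This was 60.2% of shEV, the lowest share that Pou5f1 reached in the 7 comparisons (-0.73, SE 0.040, adjusted p = 1.76e-13). Sox2 had 1079 and 1188 CPM with shEV and 1335 and 1346 CPM with shWdr5. Both shWdr5 libraries lay above both controls, at 118% (0.24, SE 0.043, adjusted p = 4.07e-05), and this was the only comparison in which Sox2 was called higher. Nanog had 519.9 and 527 CPM with shEV and 411 and 435 CPM with shWdr5. Here it was called lower, at 80.8% of shEV (-0.31, SE 0.043, adjusted p = 1.70e-06), while with shRybp it was called higher. Rybp itself was higher with shWdr5, from 79.9 and 81.3 CPM to 120.6 and 117 CPM (0.56, SE 0.053, adjusted p = 3.81e-09). Since shRybp and shWdr5 share the shEV libraries, the 2 sets of values stand side by side and are not independent. Of the trophectoderm genes 4 of 6 tested were higher and 1 lower, and their sum went from between 87.4 and 96.0 CPM to between 237 and 249 CPM. The primitive endoderm genes, 4 of 7 higher and 1 lower, went from between 17.1 and 20.5 to between 36.4 and 36.8 CPM. Their part in the levels of the 3 factors was not tested.

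In cells with the TF-AA mutation, Nanog was higher and neither Pou5f1 nor Sox2 was called, against 30.5% of the genes tested (14.4% higher, 16.1% lower). Nanog had 445 and 450.2 CPM in WT ESC and 502 and 556 CPM in TF-AA mutation cells. The groups did not overlap, at 118% of the control (0.24, SE 0.075, adjusted p = 0.018). The call rested on both mutant libraries, since without the first it was 0.31 with an adjusted p of 0.065 and without the second 0.16 with an adjusted p of 0.433. Sox2 had 697 and 692 CPM in WT ESC and 613 and 639 CPM in TF-AA mutation cells. It lay lower in both mutant libraries without passing the test (-0.15, SE 0.072, adjusted p = 0.116), and passed without the second WT ESC library (-0.17, adjusted p = 0.045). Pou5f1 had 664 and 572 CPM in WT ESC and 626 and 591 CPM in TF-AA mutation cells. The WT ESC libraries lay to both sides of the mutants, so that the 95% interval of the difference ran from -0.19 to 0.14. Without a TF-AA mutation library the number of genes called fell from 4412 to 2724 or 2733, and the fibroblast or feeder genes, 3 of 3 tested higher, went from between 11.0 and 11.7 to between 24.0 and 24.7 CPM, with Col3a1, Dcn and Lum at 0 in every library. Primitive endoderm genes, 2 of 5 tested higher, went from between 11.6 and 11.8 to between 20.8 and 21.1 CPM, and trophectoderm genes, 2 of 3 tested higher, from between 43.0 and 44.8 to between 50.5 and 53.8 CPM. Their part in the level of Nanog was not tested.

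RYBP phase disruption lowered Pou5f1 and raised Nanog to a like extent on the log2 scale. Against WT.RYBP, 33.0% of the genes tested passed (16.1% higher, 17.0% lower). Pou5f1 had 419 and 430.4 CPM in WT.RYBP and 296 and 312 CPM in RYBP phase disruption cells. It fell to 71.7% of the control in libraries that did not overlap (-0.48, SE 0.045, adjusted p = 1.83e-10). Nanog had 399 and 408 CPM in WT.RYBP and 569.6 and 557 CPM in RYBP phase disruption cells. It rose to 139.7% (0.48, SE 0.042, adjusted p = 4.56e-11), and both mutant libraries lay above both controls. Sox2 had 437 and 453 CPM in WT.RYBP and 464 and 456 CPM in RYBP phase disruption cells. The mutant values were slightly higher but not called, with a 95% interval of the log2 difference of -0.04 to 0.14 (adjusted p = 0.409). Rybp itself stood at 749 and 753 CPM in WT.RYBP and at 662 and 626 CPM in RYBP phase disruption cells (-0.22, SE 0.041, adjusted p = 6.80e-05), so the groups also differ in the amount of Rybp RNA, and Wdr5 (84.7% of control, adjusted p = 4.24e-04) and Stat3 (83.2%, adjusted p = 1.63e-04) were lower as well. Fibroblast or feeder genes were high in both groups, between 424 and 431 CPM in WT.RYBP and between 343 and 367 CPM in RYBP phase disruption cells, with 3 of 7 lower. Trophectoderm genes, 4 of 6 tested higher, went from between 140.5 and 144 to between 237 and 246 CPM. Library size alone moved the share of higher calls from 48.7% to 61.7%, and the calls of the 3 factors stayed as they were. The part of these genes and of the Rybp, Wdr5 and Stat3 levels in the 3 factors was not tested.

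DOX in Tet.RYBP cells moved none of the 3 factors past the test. In Tet.RYBP cells with DOX against vehicle 6.02% of the genes tested passed (3.63% higher, 2.39% lower), the smallest share of the 7 comparisons. Pou5f1 had 756 and 722 CPM with vehicle and 694 and 677 CPM with DOX (-0.11, SE 0.042, adjusted p = 0.136). Nanog had 492 and 532 CPM with vehicle and 469.8 and 470.0 CPM with DOX (-0.12, SE 0.046, adjusted p = 0.118). Sox2 had 669 and 654 CPM with vehicle and 644 and 645 CPM with DOX (-0.04, SE 0.042, adjusted p = 0.714). All 3 lay lower with DOX in both libraries, and unadjusted p-values were 0.015 for Pou5f1, 0.012 for Nanog and 0.385 for Sox2. Calls were gained when a control was left out. Without the first vehicle library Nanog was at -0.18 (adjusted p = 3.64e-07), and without the second Pou5f1 was at -0.14 (adjusted p = 6.23e-06). The number of genes called, 899, ranged from 406 to 1566 when any of the 4 libraries was left out: 1566 without the first and 1467 without the second vehicle library, 406 without the first and 409 without the second DOX library.

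In rTRS cells DOX lowered Pou5f1 and Sox2 together and left Nanog uncalled. Against NTC 43.4% of the genes tested passed (23.0% higher, 20.4% lower). Pou5f1 had 777 and 676 CPM without and 526 and 442 CPM with DOX. It fell to 66.7% of the control with no overlap between the groups (-0.58, SE 0.083, adjusted p = 9.68e-05). Sox2 had 577 and 509 CPM without and 394 and 344 CPM with DOX. Its fall, to 68.0%, was much like that of Pou5f1 (-0.56, SE 0.076, adjusted p = 7.17e-05). Nanog had 673 and 678 CPM without and 633 and 658 CPM with DOX. It lay slightly lower, with a 95% interval of the log2 difference of -0.18 to 0.05 (adjusted p = 0.355). Pou5f1 and Sox2 were lower in the second library of each group than in the first, while Nanog was not. With a replicate block in the edgeR fit Nanog was called lower (adjusted p = 0.042), although the labels name no shared batch. Sox2ot also fell, from 2.29 and 2.35 CPM to 0.828 and 0.609 CPM (-1.69, SE 0.34, adjusted p = 0.0015). Trophectoderm genes, 5 of 6 tested higher, went from between 133 and 137 CPM to between 197 and 205 CPM, and the 8 ESC markers, 6 of them lower, fell from between 6074 and 6388 to between 3735 and 3977 CPM. Primitive endoderm genes, 1 of 6 tested higher and 1 lower, summed to between 7.86 and 9.49 CPM without and between 20.8 and 21.7 CPM with DOX. The part of other cell types in these levels was not tested.

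**Figure D2:**
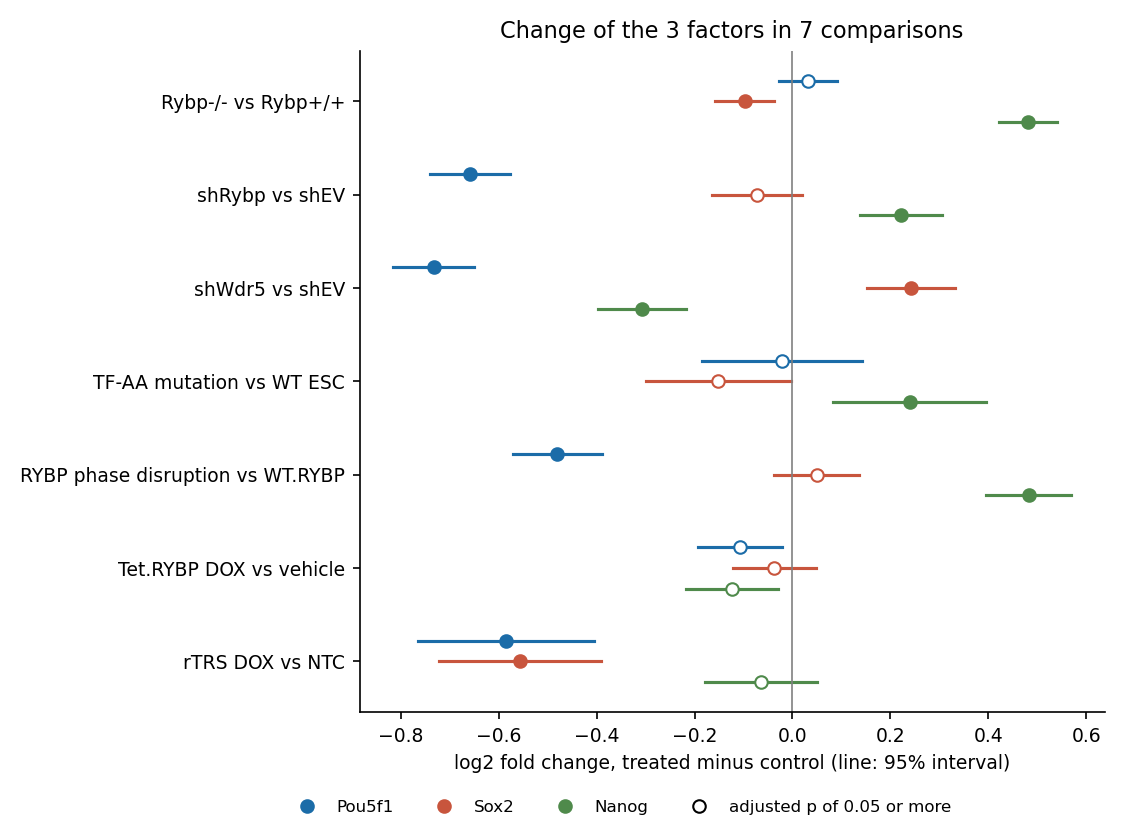
Log2 fold change (treated minus control) of Pou5f1, Sox2 and Nanog in the 7 comparisons, with 95% intervals from edgeR's quasi-likelihood fit over 2 libraries against 2; open symbols have an adjusted p of 0.05 or more. Pou5f1 reaches from -0.73 to 0.03, Sox2 from -0.56 to 0.24 and Nanog from -0.31 to 0.48. Pou5f1 has no called value above 0 and Nanog has 4, where 6.02% to 63.0% of all genes tested were called per comparison.

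Over the 7 comparisons Pou5f1 was lower in 4, higher in 0 and not called in 3. Sox2 was higher in 1, lower in 2 and not called in 4, and Nanog was higher in 4, lower in 1 and not called in 2. Of all genes tested, 45.5% were called in Rybp-/-, 52.7% in shRybp, 63.0% in shWdr5 and 30.5% in TF-AA mutation cells. The share was 33.0% in RYBP phase disruption, 6.02% in Tet.RYBP and 43.4% in rTRS cells. Calls were thus common, and the same tally over all genes was not made. No comparison had all 3 factors called in the same direction, and the counts hold shRybp and shWdr5, which share controls. Of the 14 called values (interaction included), 12 kept direction and call under every alternative tried, and Sox2 in Rybp-/- ESCs and Nanog in TF-AA mutation cells did not.

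Ratios between the factors were taken within each library, where scaling plays no part. The log2 ratio of Nanog to Pou5f1 counts was higher in the treated libraries in 6 of the 7 comparisons without overlap between the groups. It rose by 0.45 in Rybp-/-, 0.88 in shRybp, 0.42 in shWdr5, 0.26 in TF-AA mutation, 0.96 in RYBP phase disruption and 0.52 in rTRS DOX cells. The exception was Tet.RYBP, where the groups overlapped and the difference was -0.01. RYBP phase disruption shows what such a shift means in counts, since the log2 ratio was -0.07 and -0.08 in the WT.RYBP libraries and 0.94 and 0.83 in the mutants. Nanog also gained on Sox2 in 5 comparisons, by 0.58, 0.29, 0.39, 0.43 and 0.49 in Rybp-/-, shRybp, TF-AA mutation, RYBP phase disruption and rTRS DOX cells. With shWdr5 the ratio of Nanog to Sox2 fell by 0.55, and in Tet.RYBP cells it was lower by 0.09. Sox2 gained on Pou5f1 by 0.59 with shRybp, 0.98 with shWdr5 and 0.53 in RYBP phase disruption cells. Sox2 lost on Pou5f1 in Rybp-/- ESCs (-0.13) with no overlap, and in TF-AA mutation cells the difference was also -0.13, with overlap. Tet.RYBP cells had 0.07 without overlap and rTRS cells 0.03 with overlap. No test was made on the ratios, and how often the ratio of other gene pairs separates in this way was not counted. The shRybp and shWdr5 shifts are taken against the same shEV libraries and are not independent.

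**Figure D3:**
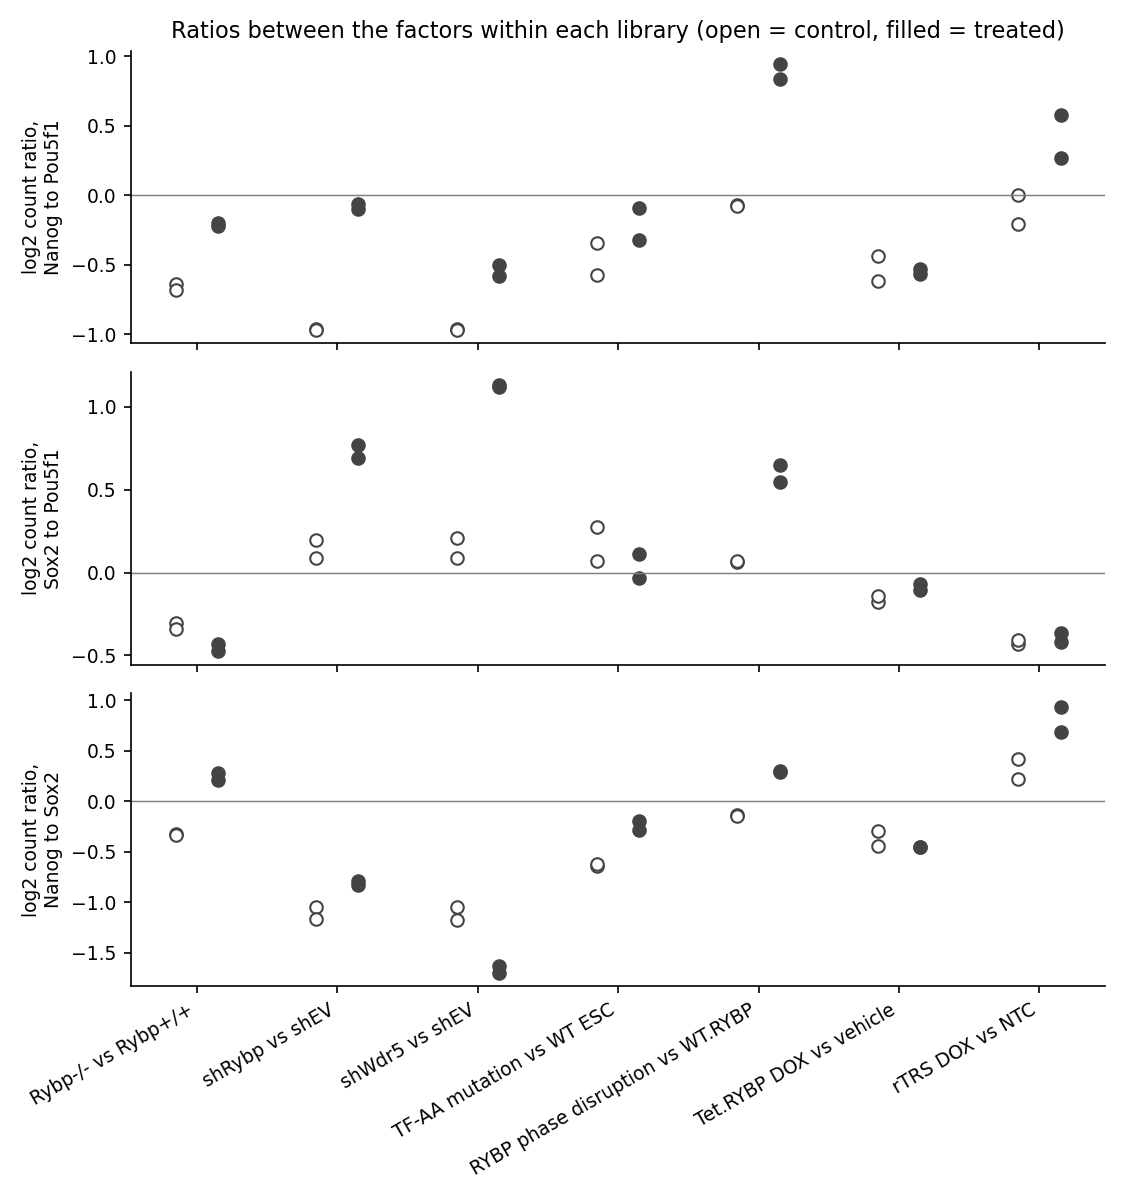
Log2 ratios of the raw counts of Nanog to Pou5f1, Sox2 to Pou5f1 and Nanog to Sox2 in each library, for the 7 comparisons; open circles are control and filled circles treated libraries, 2 each, with no scaling. Nanog to Pou5f1 lies higher in the treated libraries in 6 comparisons, and Sox2 to Pou5f1 is farthest apart for shWdr5, by 0.98. The shRybp and shWdr5 comparisons share their shEV libraries.

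After centring each table on its mean, log2 CPM of Pou5f1 and Sox2 had a Pearson correlation of 0.25 over the 28 columns, Pou5f1 and Nanog of -0.10 and Sox2 and Nanog of -0.19. These are descriptions of 28 columns that share tables and controls. Among 10616 genes ranked in this way, those most like Pou5f1 were Tns3 (0.95), Rbfa (0.95) and Slc7a3 (0.95). The genes most like Sox2 were 2410004A20Rik (0.89), Armc8 (0.88) and Arid5b (0.86), and those most like Nanog were Zfp334 (0.91), Marveld1 (0.89) and Zcchc17 (0.88).

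Other factors of the naive state did not form a single block with the 3 genes. The counts of this and the following lists stand against the shares of all genes called in either direction, which were 45.5% in Rybp-/-, 52.7% in shRybp, 63.0% in shWdr5, 30.5% in TF-AA mutation, 33.0% in RYBP phase disruption, 6.02% in Tet.RYBP and 43.4% in rTRS cells. No test was made of any list. Of 12 naive pluripotency factors, 7 were higher and 2 lower in Rybp-/- ESCs (median log2 fold change 0.17, against 0.00 for all genes tested). Tbx3, a T-box factor that sustains self-renewal, rose by 0.77, Tfcp2l1, a target of LIF signalling, by 0.56 and Klf4, a Krüppel-like factor, by 0.42. With shRybp 2 were higher and 6 lower (median -0.13, which is smaller than the shift that scaling by library size alone brings there). There Klf2 changed by -1.15, the nuclear receptor Nr0b1 by -0.93 and Tfcp2l1 by -0.74, so that Tfcp2l1 was called in opposite directions in knockout and knockdown. With shWdr5 3 were higher and 8 lower (median -0.36), led by Nr0b1 (-1.29), Klf2 (-0.99) and Klf5 (-0.93). Klf2 differed between the shEV libraries themselves, at 1282 and 1874 CPM in the table of shRybp. In TF-AA mutation cells 2 were higher and 3 lower (median 0.03), with Nr0b1 at -0.87, Klf5 at -0.45 and Tfcp2l1 at 0.31. In RYBP phase disruption cells 3 were higher and 3 lower (median 0.00), with Dppa3 at 1.01, Klf5 at -0.76 and Prdm14 at 0.60. Tet.RYBP cells with DOX had 0 higher and 1 lower (median -0.06), Sall4 at -0.16. The rTRS cells stood apart in count, with 11 of 12 lower and 0 higher (median -0.78), among them Nr0b1 (-2.08), Zfp42 (-1.68) and Klf4 (-1.12), beside the fall of Pou5f1 and Sox2 and the uncalled Nanog. In all, the called share of the 12 was 75% in Rybp-/-, 66.7% in shRybp, 91.7% in shWdr5, 41.7% in TF-AA mutation, 50% in RYBP phase disruption, 8.33% in Tet.RYBP and 91.7% in rTRS cells.

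Genes known as targets of the OCT4-SOX2 pair moved both ways. Of 9 such targets, 4 were higher and 4 lower in Rybp-/- ESCs (median log2 fold change 0.01), with Fbxo15 at 0.60, Spp1, which encodes osteopontin, at 0.47, and the chromatin factor Utf1 at -0.50. With shRybp, where Pou5f1 was lower, 6 were higher and 3 lower (median 0.15). Lefty1, an inhibitor of Nodal signalling, stood at 67.1 and 60.2 CPM with shEV and at 174 and 176 CPM with shRybp (1.46), while Utf1 was at -0.83. With shWdr5 1 was higher and 5 were lower (median -0.31), among them the Nodal co-receptor Tdgf1 (-0.65), the growth factor Fgf4 (-0.60) and Spp1 (-0.45). In TF-AA mutation cells, where Pou5f1 and Sox2 were not called, 1 was higher and 5 were lower (median -0.24). Lefty1 had 157 and 135 CPM in WT ESC and 36.3 and 35.0 CPM in TF-AA mutation cells (-2.03), followed by Spp1 (-0.94) and Dppa5a (-0.53). RYBP phase disruption had 2 higher and 3 lower (median -0.01), with Fbxo15 at 1.33, Lefty1 at 0.93 and Fgf4 at -0.36. In Tet.RYBP cells 4 were higher and 0 lower (median 0.16), and Lefty1 (1.12), Spp1 (0.53) and Fbxo15 (0.35) were among them although none of the 3 factors was called. In rTRS cells 1 was higher and 7 were lower (median -1.09), with Spp1 at -1.69 and Lefty1, the exception, at 1.53. The median of all genes lay between -0.01 and 0.02 in the 7 comparisons. The called share of the 9 was 88.9% in Rybp-/-, 100% in shRybp, 66.7% in shWdr5 and 66.7% in TF-AA mutation cells. It was 55.6% in RYBP phase disruption, 44.4% in Tet.RYBP and 88.9% in rTRS cells. With shWdr5 the share was near the 63.0% of all genes, so that count is not particular to these targets.

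**Figure D4:**
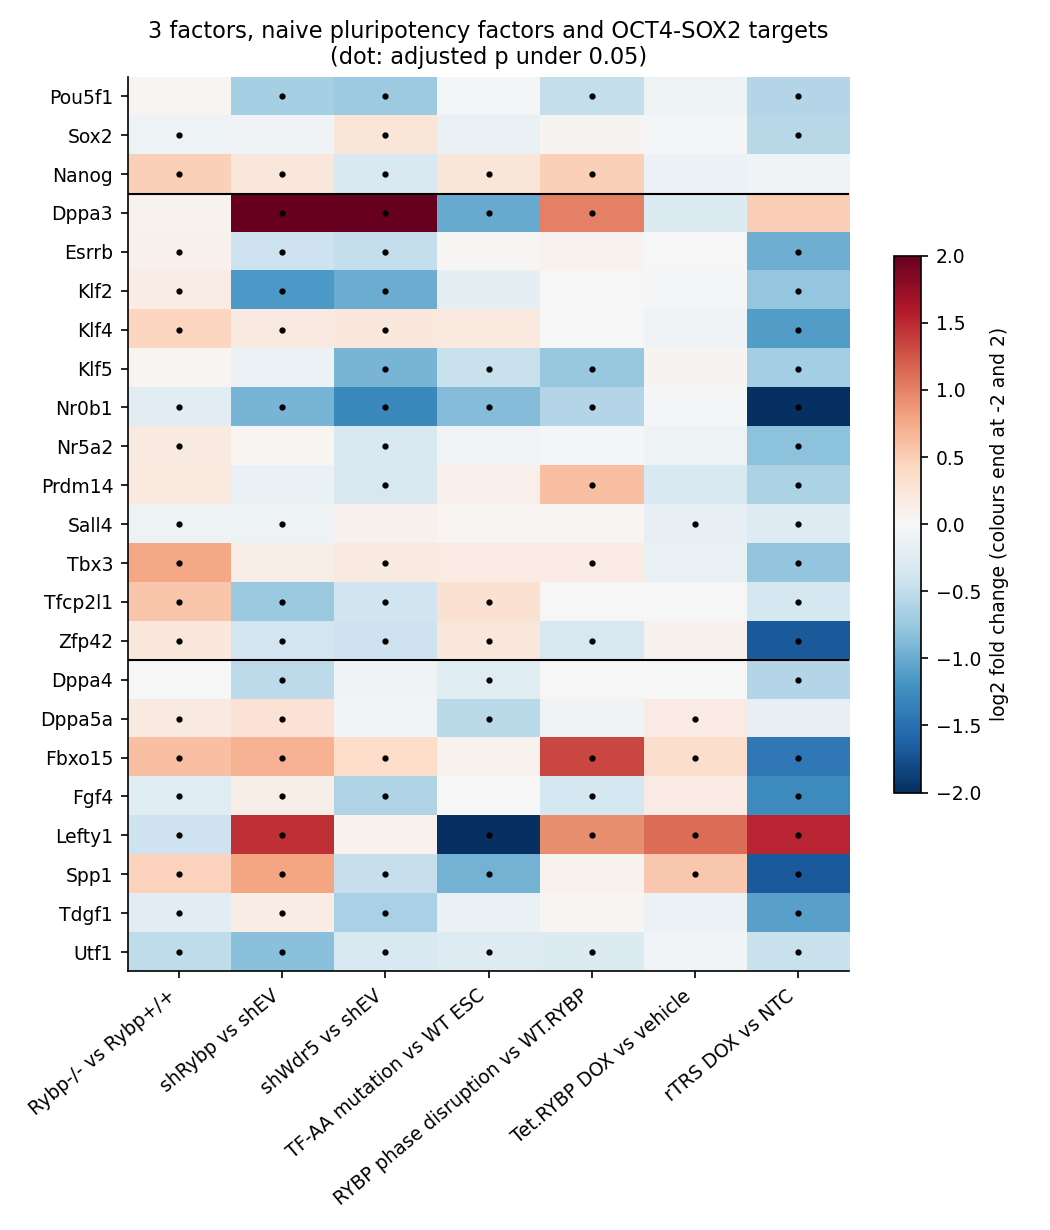
Log2 fold change (treated minus control, colour scale) of Pou5f1, Sox2 and Nanog, of the naive pluripotency factors and of the OCT4-SOX2 targets in the 7 comparisons, 2 libraries against 2 each; dots mark an adjusted p under 0.05. The column of rTRS cells holds 11 of 12 naive factors lower, and the row of Lefty1 changes sign between comparisons, from -2.03 to 1.53.

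Genes of the formative and primed states, through which cells leave the naive state, had more lower than higher calls in Rybp-/- and RYBP phase disruption cells and more higher than lower calls in shWdr5 and rTRS DOX cells. In Rybp-/- ESCs 0 of 7 were higher and 6 were lower (median -0.98). Otx2, a homeobox factor of the formative state, went from 40.3 and 37.3 CPM to 10.8 and 11.6 CPM (-1.79). The DNA methyltransferase Dnmt3a was at -0.73. RYBP phase disruption cells had 0 of 6 tested higher and 4 lower (median -0.90), with Otx2 at -1.52, the Wnt effector Lef1 at -1.04 and the methyltransferase Dnmt3b at -0.76. These are also the comparisons with the highest Nanog values relative to control, 139.6% and 139.7%. With shWdr5, where Nanog was lower, 4 of 6 were higher and 2 lower (median 0.66), among them Otx2 (1.58) and Lef1 (1.34). In rTRS cells 4 of 7 were higher and 1 lower (median 0.86), and Fgf5, a marker of the primed epiblast, went from 0.978 and 0.745 CPM to 26.6 and 27.7 CPM (4.98). With shRybp 1 of 6 was higher and 2 were lower (median -0.07). In TF-AA mutation cells 0 of 5 were higher and 1 was lower. In Tet.RYBP cells 1 of 6, Dnmt3b at 0.57, was higher and 0 lower. The called share was 85.7% in Rybp-/-, 50% in shRybp, 100% in shWdr5 and 20% in TF-AA mutation cells. It was 66.7% in RYBP phase disruption, 16.7% in Tet.RYBP and 71.4% in rTRS cells. With shRybp and in TF-AA mutation cells it did not exceed the 52.7% and 30.5% of all genes.

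Other members of the POU and SOX families were much scarcer than Pou5f1 and Sox2 in most libraries. In Rybp-/- ESCs 1 of 10 was higher and 7 were lower (median -0.39), with Pou6f1 at 1.44, Sox21 at -1.04 and Sox12 at -0.77. With shRybp 3 of 9 were higher and 3 lower (median 0.15), and Sox12, at 286 and 375 CPM with shEV, was at -0.74. With shWdr5 2 of 9 were higher and 5 lower (median -0.37), with Sox21 at 2.03, Sox3 at -1.48 and Sox15 at 1.02, beside the higher Sox2. TF-AA mutation cells had 2 of 9 higher and 1 lower, Sox21 at 2.16 and Sox4 at -0.87. In RYBP phase disruption cells 0 of 9 were higher and 3 lower, and in Tet.RYBP cells 1, Sox12 at 0.32, was higher and 0 lower. The rTRS cells, in which Sox2 fell, had 4 of 10 higher and 3 lower (median 0.41), among the higher ones Sox11 (1.51), Pou6f1 (1.20) and Sox4 (0.63). The called share of the family was 33.3% in both TF-AA mutation and RYBP phase disruption cells, near the 30.5% and 33.0% of all genes, so these counts are not particular to it.

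Trophectoderm genes, which OCT4 is known to hold down, had more higher than lower calls both where Pou5f1 was called lower and where it was not called. Higher were 6 of 7 tested in Rybp-/-, 5 of 7 in shRybp, 4 of 6 in shWdr5, 4 of 6 in RYBP phase disruption and 5 of 6 in rTRS cells, against 22.8%, 26.8%, 31.5%, 16.1% and 23.0% of all genes. TF-AA mutation and Tet.RYBP cells rest on few genes, 2 of 3 and 1 of 4 tested, against 14.4% and 3.63%, and shRybp and shWdr5 share their controls. In rTRS cells the caudal factor Cdx2 went from 0.724 and 0.670 CPM to 9.65 and 10.2 CPM (3.83), the keratin Krt7 was at 2.49 and the T-box factor Eomes at 1.47. With shWdr5 Krt7 was at 3.69 and the AP-2 factor Tfap2c at 1.5. With shRybp Gata3 went from 1.49 and 1.06 CPM to 10.5 and 10.7 CPM (3.04), and Eomes was at -0.61. In RYBP phase disruption cells Hand1 was at 2.68 and Krt7 at 1.58. In Rybp-/- ESCs, with Pou5f1 uncalled, Krt7 was at 0.84 and Tfap2c at 0.20, and in Tet.RYBP cells Tfap2c was the only member called, at 0.64. Of neural genes, which SOX2 also regulates in other tissues, only 3 were tested. With shRybp, with shWdr5 and in rTRS cells 1 was higher and 2 were lower. In Rybp-/- ESCs 2 were higher and 1 lower. TF-AA mutation and RYBP phase disruption cells had 1 of each, and Tet.RYBP cells 0 higher and 1 lower. The tubulin Tubb3 and the intermediate filament gene Nes were called in opposite directions with shRybp (-0.68 and 1.55) and in rTRS cells (-1.92 and 1.55).

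All 3 genes lay in broad H3K27ac and H3K4me3 peaks in both Rybp+/+ and Rybp-/- ESCs. The peak values below are those of the authors' caller, from merged replicates or from 1 library, so no error or test can be given. Fold enrichment is over input. Within 10 kb of the start site, 3 of 3 genes had H3K27ac and H3K4me3 peaks in both conditions, against 56.3% (Rybp+/+) and 59.9% (Rybp-/-) of 22367 coding genes for H3K27ac and 71.3% and 71.4% for H3K4me3. At Pou5f1 the H3K27ac peak over the start was chr17:35635077-35647448 in Rybp+/+, with a fold enrichment of 33.7, and chr17:35635324-35647452 in Rybp-/-, with 28.1. At Nanog it was chr6:122651298-122663402 with 39.8 in Rybp+/+ and chr6:122651304-122661852 with 33.2 in Rybp-/- ESCs. At Sox2 it was chr3:34546505-34557168 with 23.1 in Rybp+/+ and chr3:34546852-34557067 with 27.8 in Rybp-/- ESCs. The median fold enrichment of all peaks also differed between the lists, 4.12 in Rybp+/+ and 3.86 in Rybp-/- ESCs. By percentile within its list the peak over Pou5f1 was at 98.1 and 97.9, that over Nanog at 99.0 and 98.8 and that over Sox2 at 94.8 and 97.8, with Rybp+/+ first. H3K4me3 over the start had a fold enrichment of 43.9 and 44.1 at Pou5f1, 47.8 and 50.3 at Sox2 and 32.7 and 36.3 at Nanog, in Rybp+/+ and Rybp-/- ESCs in turn. The median of all H3K4me3 peaks was 7.53 and 7.97, and the percentiles within the lists were 89.8 and 88.2 at Pou5f1, 92.6 and 92.6 at Sox2 and 80.3 and 81.6 at Nanog.

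Farther out, within 130 kb of the start sites, the number of H3K27ac peaks went from 26 in Rybp+/+ to 31 in Rybp-/- ESCs at Pou5f1, from 40 to 45 at Nanog and was 22 in both at Sox2. The Sox2 and Nanog regions given below were chosen for their lower values in Rybp-/- ESCs, after these were seen. Regions higher and lower were not tallied. Peaks listed only in Rybp-/- ESCs also occurred, such as chr17:35676348-35676872 and chr17:35688073-35688659 near Pou5f1. The strongest H3K27ac peak near Sox2 lay in intergenic DNA at chr3:34651781-34666626, more than 100 kb downstream, with a fold enrichment of 40.4 in Rybp+/+ and 37.6 in Rybp-/- ESCs (chr3:34651027-34665048). Closer to Sox2, in an intron of Sox2ot, a peak of 7315 bp at chr3:34561555-34568869 with 15.0 in Rybp+/+ was 3220 bp at chr3:34561547-34564766 with 6.50 in Rybp-/- ESCs, followed by smaller peaks with 3.52 and 3.29. This region also held peaks of RING1B in all 4 lists (from 6.67 to 10.2), of WDR5 in both (4.78 and 4.28) and of STAT3 in the DOX+ list (10.4). Near Nanog, a peak in an intron of Gdf3 at chr6:122555266-122560841 had 46.6 in Rybp+/+ and 22.3 in Rybp-/- ESCs (chr6:122555394-122560823). Another in an intron of Slc2a3 at chr6:122707697-122728370 had 32.9, against 24.8 at chr6:122708260-122724372. The summed length of H3K27ac peaks within 130 kb came to 48.2 and 50.8 kb at Pou5f1, 47.4 and 40.0 kb at Sox2 and 100.4 and 87.3 kb at Nanog, with Rybp+/+ first in each pair. Over the whole lists it was 73.1 and 69.6 Mb.

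WDR5, the H3K4 methylation subunit, and RING1B, the Polycomb ligase, had most of their listed peaks within 10 kb at Sox2. This depends on the window, since a stronger WDR5 peak lay just outside it near Pou5f1. Within 10 kb WDR5 had 4 peaks at Sox2 in Rybp+/+ ESCs and none at Pou5f1 or Nanog (1 of 3 genes, against 50% of coding genes). In Rybp-/- ESCs it had 2 peaks at Sox2 and 1 at Nanog (2 of 3 genes, against 52.5%). At a −log10 q of at least 5 only 1 of the 4 Rybp+/+ peaks at Sox2 remained, and both Rybp-/- peaks there did, so the order of the counts depends on that limit. The strongest over Sox2 was chr3:34548855-34550380 in Rybp+/+, with a fold enrichment of 5.57, and chr3:34549607-34550406 in Rybp-/- ESCs, with 5.16. The peak at Nanog in Rybp-/- ESCs, chr6:122652540-122653096, was weak, at 2.71. RING1B had 2 peaks within 10 kb of Sox2 in each of its 4 lists and 0 at Pou5f1 and Nanog. These peaks were weak, with −log10 q from 2.53 to 7.25, and at a −log10 q of at least 5 the lists kept 0 (shEV), 1 (shStat3), 1 (DOX-) and 0 (DOX+). For coding genes the share with RING1B was 49.9% with shEV, 45.2% with shStat3, 58.7% in DOX- and 45.8% in DOX+ cells of the Tet.Rybp.Stat3 line, and 38.6% in all 4. The peak common to the 4 lists lay upstream of Sox2, at chr3:34541209-34541758 with shEV (3.96) and chr3:34540965-34541693 with shStat3 (4.26). It lay at chr3:34539153-34541826 in DOX- (3.96) and at chr3:34540950-34541686 in DOX+ cells (3.79). A promoter peak of RING1B at Sox2 was listed with shEV (3.45), DOX- (4.85) and DOX+ (3.06) and not with shStat3. Just outside the 10 kb, on the Tcf19 side of Pou5f1, lay a WDR5 peak with 20.2 in Rybp+/+ and 18.9 in Rybp-/- ESCs and RING1B peaks with shEV (3.63) and in DOX- cells (4.64).

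STAT3, the factor that LIF activates, had peaks at the 3 genes mainly in cells with DOX-induced Rybp_Stat3. In Rybp+/+ ESCs its list held 1 peak within 10 kb of the 3 genes, in an intron of Pou5f1 at chr17:35643428-35643779 (5.73). In Rybp-/- ESCs it held 1, at Sox2, chr3:34549280-34550247 (3.60). These are 1 of 3 genes in each list, against 9.23% and 7.54% of coding genes, and both lists came from 1 library each. At a −log10 q of at least 5 the Pou5f1 peak (5.24) was kept and the Sox2 peak (3.44) was lost. In Tet.Rybp.Stat3 cells 0 of 3 genes had a peak in DOX- (10.4% of coding genes) and 3 of 3 in DOX+ (62.3%). At a −log10 q of at least 5 this was 2 of 3, since Nanog kept none of its peaks. Pou5f1 kept 1, the farthest from its start, which lay outside the gene with its summit in an exon of Tcf19. The share of coding genes at that limit was not counted. Gain from DOX- to DOX+ was seen in 52.2% of coding genes, so a gain at the 3 genes is what most genes showed, and the DOX+ list held 30663 peaks against 2816. Sox2 had 4 peaks in DOX+, with summits at -7335, -1144, -192 and 812 bases from the start and fold enrichments of 4.50, 5.32, 2.64 and 4.17. Pou5f1 had 3, at -789, -20 and 9997 bases (2.20, 3.61 and 4.01), the first of them weak with a −log10 q of 1.92, and Nanog had 2, of which the farther lay at -4683 bases (2.67). The RNA of rTRS cells, in which Pou5f1 and Sox2 fell with DOX and Nanog was not called, comes from cells labelled with the same genotype, and the labels do not say whether the lines are the same. The summits at -20 of Pou5f1 and -192 of Sox2 lie in the promoter sequences shown above. The window centred on the summit of the strongest STAT3 peak near Sox2 is shown for comparison with them, from mm9 on the plus strand at chr3:34547683-34547883, with capitals for the same letters.
Sox2 summit at -1144: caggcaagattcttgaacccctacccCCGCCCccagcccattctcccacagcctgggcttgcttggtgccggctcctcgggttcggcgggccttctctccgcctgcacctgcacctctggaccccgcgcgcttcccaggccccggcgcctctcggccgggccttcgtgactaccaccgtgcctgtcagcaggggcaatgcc
This window held no TTCNNNGAA, which was found in 3.82% of the windows of this length in the DOX+ list and in 3.69% of those of DOX-. GGGCGG was found in 37.6% and 52.3% of them.

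**Figure D5:**
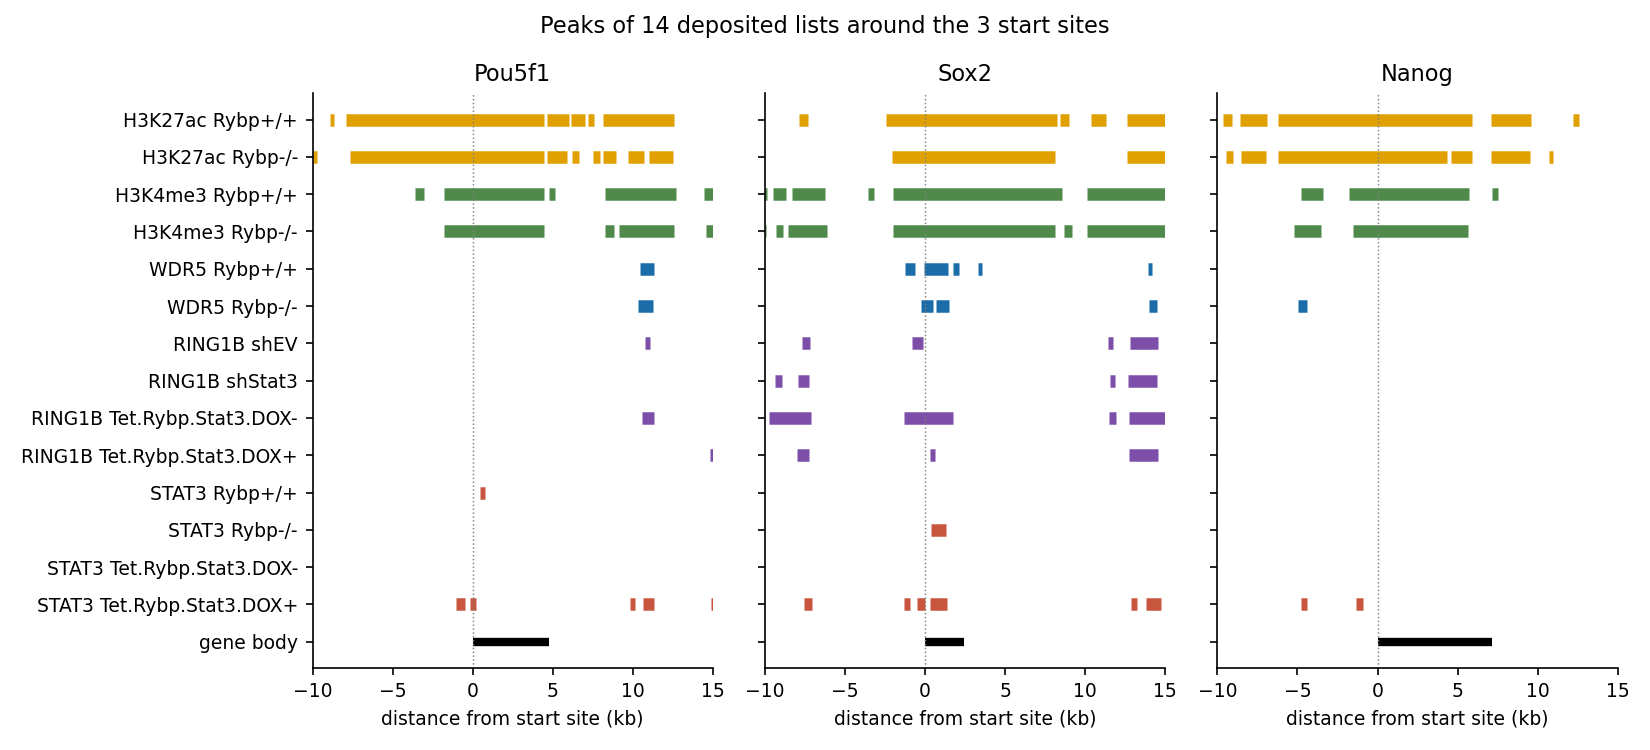
Position of the listed peaks around the start site of Pou5f1, Sox2 and Nanog (x axis, distance in kb) for the 14 lists of peaks (y axis), each coloured bar a peak drawn to scale and each black bar the gene body. H3K27ac and H3K4me3 bars cover all 3 start sites in both conditions, RING1B bars within 10 kb appear at Sox2 only, and STAT3 bars at all 3 genes appear in the DOX+ list only.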

How the data were processed

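Per the labels and the study's methods, the authors trimmed reads with Trim Galore, aligned them to mm9 with STAR and made the deposited counts per gene with HTSeq. These are raw read counts, not normalized, in 7 tables with 28 columns of 26 RNA-seq libraries. The peak lists are the authors' MACS2 output on reads aligned with Bowtie2, from merged replicates or 1 library, and hold a deposited fold enrichment (a ratio) over input and a deposited −log10 q-value. The lists reach down to −log10 q of 1.30 (narrow) and 1.01 (broad), looser than the FDR limit the study's methods state, and were used as deposited. The Tet.RYBP table heads its controls NTC where the labels say vehicle, and the second DOX column of rTRS and the second mutant column of RYBP phase disruption carry an extra prefix; each was matched by the rest of its name. ChIP groups other than those named were not used here.

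From the counts, library totals (14512900 to 81049600 reads on genes, without the 4.7% to 9.6% of no-feature and 2.8% to 3.5% of ambiguous reads where listed) were scaled with TMM, genes were filtered with filterByExpr, and groups were compared within each table by edgeR's quasi-likelihood test (R 4.3.3, edgeR 4.0.16, limma 3.58.1) with Benjamini-Hochberg adjustment over all genes tested and a threshold of 0.05. The code was tested on simulated data. Intervals are at 95%. Likeness used log2 CPM with a prior count of 2. No 2 replicates agreed within sampling noise. The 3 genes and all gene lists were chosen with earlier results of these data known. From each list the text names at most 3 genes per comparison, those with the largest absolute change past the threshold and a mean of at least 5 CPM. Alternatives were DESeq2 (1.42.0), other scaling, no filter, a replicate block, each library left out, and for peaks a −log10 q of at least 5, windows of 5 and 25 kb, and a 50% overlap in place of 1 bp. Sequences were read from mm9 and RefSeq (GRCm38.p6). A further summit sequence is not reported here.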

Additional observations from a re-analysis of the deposited data

Results flagged for a closer look

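The effect of losing RYBP on 2 of the 3 genes differed between the R7.15 knockout and the R1 knockdown. This was a test of the difference itself, in edgeR's quasi-likelihood fit over 8 libraries. In the same fit 40.5% of all 18203 genes tested differed, so such a difference is not particular to these genes. For Pou5f1 the Rybp-/- effect minus the shRybp effect was 0.71 on the log2 scale in this joint fit (adjusted p = 3.66e-11). Fitted and scaled separately, the effects were 0.03 in Rybp-/- and -0.66 in shRybp libraries. Both shRybp libraries lay below both shEV libraries. For Nanog the difference was 0.28 in the joint fit (adjusted p = 2.97e-05). The separate fits gave effects of 0.48 and 0.22 in the same direction, each higher in 2 of 2 libraries. Scaling by library size alone lowered the difference to 0.56 for Pou5f1 and 0.13 for Nanog, both still called. Rybp RNA was at 22.6% of control in the knockout and 42.0% in the knockdown. Cell line, method and 4-OHT cannot be told apart in this contrast.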

How the results depend on the processing

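Depth did not limit the 3 genes, which lay at 296 CPM or more in every library, while 2 libraries a group limit every p-value, and a library left alone in its group was assumed to vary like the other group. Of 228 alternative values of the 24 log2 fold changes, 206 kept direction and call, and of the 14 called values 12 did so throughout. For the results that did not, the cause was not tested.

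Direction changed in uncalled values near 0. Scaling by library size alone gave 0.0864 for Sox2 with shRybp and 0.0150 for Pou5f1 in TF-AA mutation cells. Leaving out single libraries gave -0.0032 to 0.0590 for Pou5f1 in Rybp-/-, -0.1348 to 0.0859 for Pou5f1 in TF-AA mutation cells and -0.0741 to 0.0725 for the knockout minus knockdown difference of Sox2, which was also 0.0016 with DESeq2 size factors in edgeR and 0.0016 with DESeq2. Calls were lost without a library for Sox2 in Rybp-/- (-0.1165 to -0.0788) and Nanog in TF-AA mutation cells (0.1597 to 0.3118). Calls were gained without a library for Sox2 with shRybp (-0.1454 to -0.0098), Sox2 in TF-AA mutation cells (-0.1860 to -0.1215), and Pou5f1 (-0.1404 to -0.0741) and Nanog (-0.1790 to -0.0656) in Tet.RYBP cells, and with library size alone for the Sox2 difference (-0.1598, adjusted p = 0.020).

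The replicate numbers name no shared batch, and same-numbered libraries correlated in their deviations between -0.02 and 0.37. A replicate block brought a call for Sox2 with shRybp (-0.0704, adjusted p = 0.022), Sox2 in TF-AA mutation cells (-0.1520, adjusted p = 0.041) and Nanog in rTRS cells (-0.0646, adjusted p = 0.042), and changed no other call of the 3 genes. With the block the number of genes called was 7724, 9110, 9865, 5525, 5172, 1211 and 8559 in the 7 comparisons in the order of the text, and 7354 for the difference. Counts of genes called moved by over 1.5 times with DESeq2 in RYBP phase disruption (2980 against 4814) and without single libraries in TF-AA mutation cells (2724 to 4767, against 4412) and Tet.RYBP cells (406 to 1566, against 899).

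Counts of peaks within 10 kb of the 3 genes followed the window. For H3K27ac, 13 peaks in Rybp+/+ were 4 within 5 kb and 30 within 25 kb, and 13 in Rybp-/- were 5 and 29. For H3K4me3, 12 in Rybp+/+ were 7 and 22, and 10 in Rybp-/- were 4 and 17, or 6 at a −log10 q of at least 5. WDR5 had 4 in Rybp+/+ and 1 at that q, and 3 in Rybp-/-, 2 at that q and 5 within 25 kb. RING1B had 2 in each list, which became 0 (shEV), 1 (shStat3), 1 (DOX-) and 0 (DOX+) at that q, 1, 0, 1 and 1 within 5 kb, and 5, 4, 5 and 4 within 25 kb. STAT3 in Rybp-/- had 1, which became 0 at that q and 2 within 25 kb, and STAT3 in DOX+ had 9, which became 5 and 14.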
